A study of Arabidopsis thaliana with 12 samples.

Results

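The top end of chromosome 5 of Arabidopsis thaliana, here the loci AT5G01010 to AT5G03610, was followed in whole seedlings on Affymetrix ATH1 arrays, which measure a gene through several short probes. A probe set counted as a member when the platform's probe table paired it with a single gene of that stretch. This gave 142 genes with 1 probe set each, out of 13355 genes that such probe sets name (13513 of 22810 probe sets). Of the 142 members, 100 had enough signal to be tested, and 42 belonged to the 30% of probe sets with the lowest mean over all arrays. A RefSeq gene table (assembly TAIR10.1) lists 281 protein-coding loci in the stretch, so the members are a sample of it. No coordinates are given, because the build behind the array's probes is not named in the sources used here.

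The seedlings were the wild type of the accession Ws or carried rop10-1, a mutant allele of ROP10. They were grown for 7 days in shaken liquid medium and then held for 4 hours in medium with 1 µM abscisic acid (ABA) dissolved in DMSO, or with DMSO alone as mock. The groups were rop10-1 ABA, Ws ABA, rop10-1 mock and Ws mock, with 3 biological replicates each, and this small number limits the precision. All came from Ws or the 1 mutant allele, and each RNA was made from whole seedlings together.

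ABA is the plant hormone of drought responses and seed dormancy, and it acts largely by changing which genes are transcribed. ROP10 encodes a small GTPase, a membrane-bound switch of signalling, and is known as a negative regulator of ABA responses. Genes that lie side by side on a plant chromosome need not share a function, and the members are grouped here by position only. They include an Hsp70 co-chaperone, amino acid transporters, ribosomal proteins, an expansin and a light-harvesting protein. ROP10 itself is on chromosome 3 in the RefSeq table. No probe set was assigned to ROP10 alone, so the mutated gene was not analysed here.

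The stretch was singled out because some of its genes differed between rop10-1 and Ws on these same arrays. Differences between the genotypes are therefore given as a description, without a test, while the response to ABA did not choose the members and is tested. The arrays were on 1 scale, with a 2% trimmed mean of 500.04 to 500.048 and a median signal over all probe sets of 180.15 to 203.3. Arrays of 1 group correlated at r = 0.955 to 0.979 over probe sets, and no 2 were identical. The tested members had a median signal of 380.3 over the 12 arrays, against 372 for all 15923 tested probe sets, and 20% of them lay above a signal of 1000, against 21.7%.

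The 3 most abundant members overlapped between the genotypes, and the next one did not under ABA. LHCB4.1, a light-harvesting protein of photosystem II, had the highest signal of all members. It measured 12852.8, 11081.6 and 12541.2 on the rop10-1 ABA arrays and 12483.2, 12150.7 and 13325.8 on the Ws ABA arrays. In mock it measured 12070.9, 11623.8 and 11378.8 in rop10-1 and 11623.2, 12233.4 and 14595 in Ws. The arrays of the genotypes overlapped in both treatments, with a log2 difference (rop10-1 minus Ws) of -0.059 under ABA and -0.13 in mock. AT5G02870 and AT5G02450, both genes of ribosomal proteins, had mean signals of 9784 and 4833. Their differences were 0.16 and -0.020 under ABA and 0.0043 and 0.0089 in mock. AT5G02240, of the Rossmann-fold type, was next in signal, with 4716.6, 4060.4 and 4844.8 in rop10-1 ABA, against 5133.6, 6044 and 5748.7 in Ws ABA. The rop10-1 ABA arrays of AT5G02240 were all below the Ws ABA arrays (log2 difference -0.31), and its mock arrays overlapped (-0.20).

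Along the gene order, a few members stood far from their neighbours while most lay close to 0. A member was counted where the 3 rop10-1 arrays did not overlap the 3 Ws arrays. This held for 24 of 100 tested members under ABA, 12 higher and 12 lower in rop10-1, where the share over all tested probe sets was 10.9% (5.32% higher and 5.56% lower). In mock it held for 25 members, 15 higher and 10 lower, where the share was 9.4% (4.9% higher and 4.5% lower). In both treatments and in the same direction it held for 10 members, 8 higher and 2 lower, beside 1.2% of all tested probe sets (0.565% higher and 0.634% lower). Of these 10, 7 had an average log2 difference of at least 0.5 (0.308% of all) and 4 of at least 1 (0.0816% of all). Because this contrast chose the stretch, nothing is read from these counts.

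**Figure D1:**
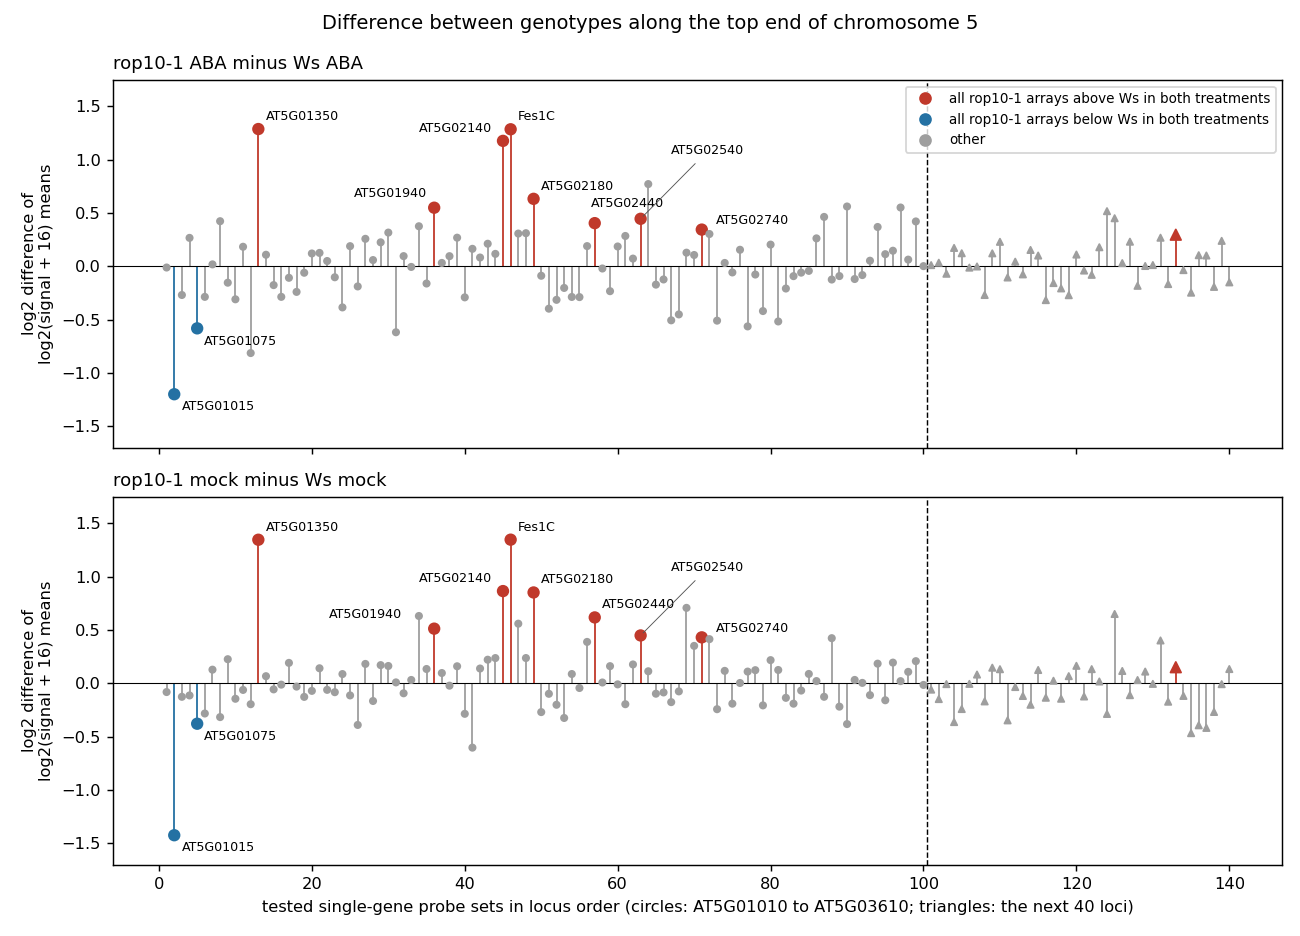
The vertical axis gives the log2 difference of group means, rop10-1 minus Ws, of log2(signal + 16), under ABA (top) and in mock (bottom); the horizontal axis gives the 100 tested members (circles) and the next 40 tested single-gene probe sets (triangles, right of the dashed line) in locus order. Red marks loci whose rop10-1 arrays all lay above the Ws arrays in both treatments, blue those whose rop10-1 arrays all lay below; the tallest lines are Fes1C and AT5G01350 upwards and AT5G01015 downwards.

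Fes1C (AT5G02150) encodes a Fes1-type nucleotide exchange factor that works with Hsp70. Its signal was 618.5, 516.1 and 647.7 in rop10-1 ABA, against 202.5, 217.6 and 287 in Ws ABA. In mock it was 686.9, 613.8 and 750.2 in rop10-1, against 247.9, 233.5 and 296.4 in Ws. Every rop10-1 array lay well above every Ws array, whatever the treatment. The signal ratio of rop10-1 to Ws was 2.52 under ABA and 2.64 in mock, with log2 differences of 1.29 and 1.35 (SE 0.16 each). In whole seedlings, more RNA per cell and more cells that hold it cannot be told apart, here and below. Other sources of a difference in signal were not tested, for Fes1C or for the members below.

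AT5G01350, a gene for which no role is given here, had nearly the same size of difference. It measured 1072.5, 1092.9 and 1149.9 in rop10-1 ABA, against 372.2, 564.7 and 412.9 in Ws ABA. In mock it measured 945.1, 1229.2 and 1223.1 in rop10-1, against 460.5, 436.5 and 401.7 in Ws. The lowest rop10-1 array was still far above the highest Ws array. The signal ratio was 2.46 under ABA and 2.62 in mock (log2 difference 1.29 and 1.35, SE 0.16 each).

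AT5G01015, the second tested member from the end of the chromosome, differed in the other direction. Its signal was 131.8, 79.8 and 104.8 in rop10-1 ABA, against 235.5, 232.9 and 314.1 in Ws ABA. In mock it was 119, 113.2 and 111.2 in rop10-1, against 278, 306.9 and 434.5 in Ws. All rop10-1 arrays were low and all Ws arrays high. The log2 difference was -1.20 under ABA and -1.42 in mock (SE 0.20 each). AT5G01010, the first locus of the stretch, had -0.010 and -0.081 with overlapping arrays. AT5G01020, the next tested gene on the other side, had -0.27 under ABA and -0.13 in mock. Its rop10-1 ABA arrays were all below the Ws ABA arrays, by a narrow margin, and its mock arrays overlapped.

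AT5G02140, which encodes a thaumatin-like protein, a family named after a sweet protein and known in plant defence, lies next to Fes1C in the gene order. It measured 66.2, 131.1 and 133.9 in rop10-1 ABA, against 63.5, 19.8 and 39.1 in Ws ABA. In mock it measured 127.5, 157.8 and 153.4 in rop10-1, against 67.4, 63.5 and 89.3 in Ws. Under ABA the lowest rop10-1 array was only just above the highest Ws array, while in mock the groups were clearly apart. The log2 difference was 1.18 under ABA and 0.87 in mock (SE 0.29 each). The signal of AT5G02140 was low, with a mean of 92.7 over the 12 arrays and of 40.8 in Ws ABA. Its average log2 difference of 1.02 depended on the 16 added to the signal. It was 0.67 with 64 added and 1.24 with 1 added.

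AT5G02160, AT5G02170 and AT5G02180 follow Fes1C directly among the tested members. AT5G02160, a gene of a thylakoid protein that binds the protease FtsH5, measured 1506.2, 997 and 1299.8 in rop10-1 ABA, against 886.3, 862.3 and 1333.6 in Ws ABA. Its mock signal was 2133.5, 1230.4 and 2000 in rop10-1, against 1068.2, 958.3 and 1579 in Ws. The genotypes overlapped in both treatments, with differences of 0.31 and 0.56. AT5G02170, of an amino acid transporter family, had 0.31 under ABA and 0.24 in mock, also with overlap.

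AT5G02180, of the same transporter family as AT5G02170, was apart again. It measured 106.9, 118.9 and 111.4 in rop10-1 ABA, against 85.5, 51 and 67.2 in Ws ABA. In mock it measured 166.7, 214.3 and 225 in rop10-1, against 101.7, 102.4 and 107.5 in Ws. The rop10-1 arrays were all above the Ws arrays of their treatment, and the rop10-1 arrays under ABA lay close to the Ws arrays in mock. The log2 difference was 0.63 under ABA and 0.85 in mock (SE 0.17 each).

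Smaller differences of the same kind were seen in 5 further members. AT5G02540, of the Rossmann-fold dehydrogenase type, measured 457.6, 401.3 and 429.7 in rop10-1 ABA, against 277.2, 392.9 and 274.4 in Ws ABA. In mock AT5G02540 measured 690.6, 638 and 586.2 in rop10-1, against 497.6, 429.5 and 461.2 in Ws. Its groups were apart in mock, and under ABA 1 Ws array came within reach of the rop10-1 arrays (log2 difference 0.45 in each treatment). AT5G02740 measured 565.8, 634.4 and 766.7 in rop10-1 ABA, against 478.2, 519.2 and 530.2 in Ws ABA. Its mock signal was 744.1, 757.1 and 814.1 in rop10-1, against 663.2, 478.9 and 574.9 in Ws, giving log2 differences of 0.35 under ABA and 0.43 in mock. Here too the lowest rop10-1 array was not far above the highest Ws array in each treatment.

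AT5G01940 and AT5G02440 were higher in rop10-1 at low signal. AT5G01940 measured 162.9, 121 and 86.1 in rop10-1 ABA, against 71.6, 76.8 and 82 in Ws ABA, and its mock arrays measured 140.1, 140.6 and 136.8 in rop10-1, against 121.6, 73.2 and 88.6 in Ws. The rop10-1 mock arrays were nearly equal, and the margin under ABA was narrow (0.55 under ABA and 0.51 in mock, SE 0.21 each). AT5G02440 measured 158.2, 105.9 and 112 in rop10-1 ABA, against 96.8, 90.1 and 81.7 in Ws ABA, and 112.2, 170.1 and 133.1 in rop10-1 mock, against 93, 81 and 76.9 in Ws mock. All its Ws arrays were below 100, with log2 differences of 0.41 under ABA and 0.62 in mock (SE 0.18 each).

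AT5G01075 was the other member that was lower in rop10-1 in both treatments. It measured 146.5, 186.2 and 149.2 in rop10-1 ABA, against 336.2, 201 and 221.6 in Ws ABA. In mock it measured 197.9, 229.4 and 166.7 in rop10-1, against 265.5, 276.3 and 239.6 in Ws. The groups came close to each other in both treatments, and 1 Ws ABA array was far above the others (log2 difference -0.58 under ABA and -0.38 in mock, SE 0.19 each).

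Arrays with the same replicate number in different groups varied together, so the genotypes were also set against each other within each number. The sign of these matched differences follows from how the 10 members were picked, so they are given for their size only. They ranged between 1.13 and 1.54 for Fes1C, between 0.93 and 1.57 for AT5G01350, and between -1.82 and -0.77 for AT5G01015. AT5G02140 was the least even, with a lowest matched difference of 0.048 and a highest of 2.04. AT5G02540, AT5G01940 and AT5G01075 also had 1 pair each near 0, at 0.029, 0.059 and -0.10.

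**Figure D2:**
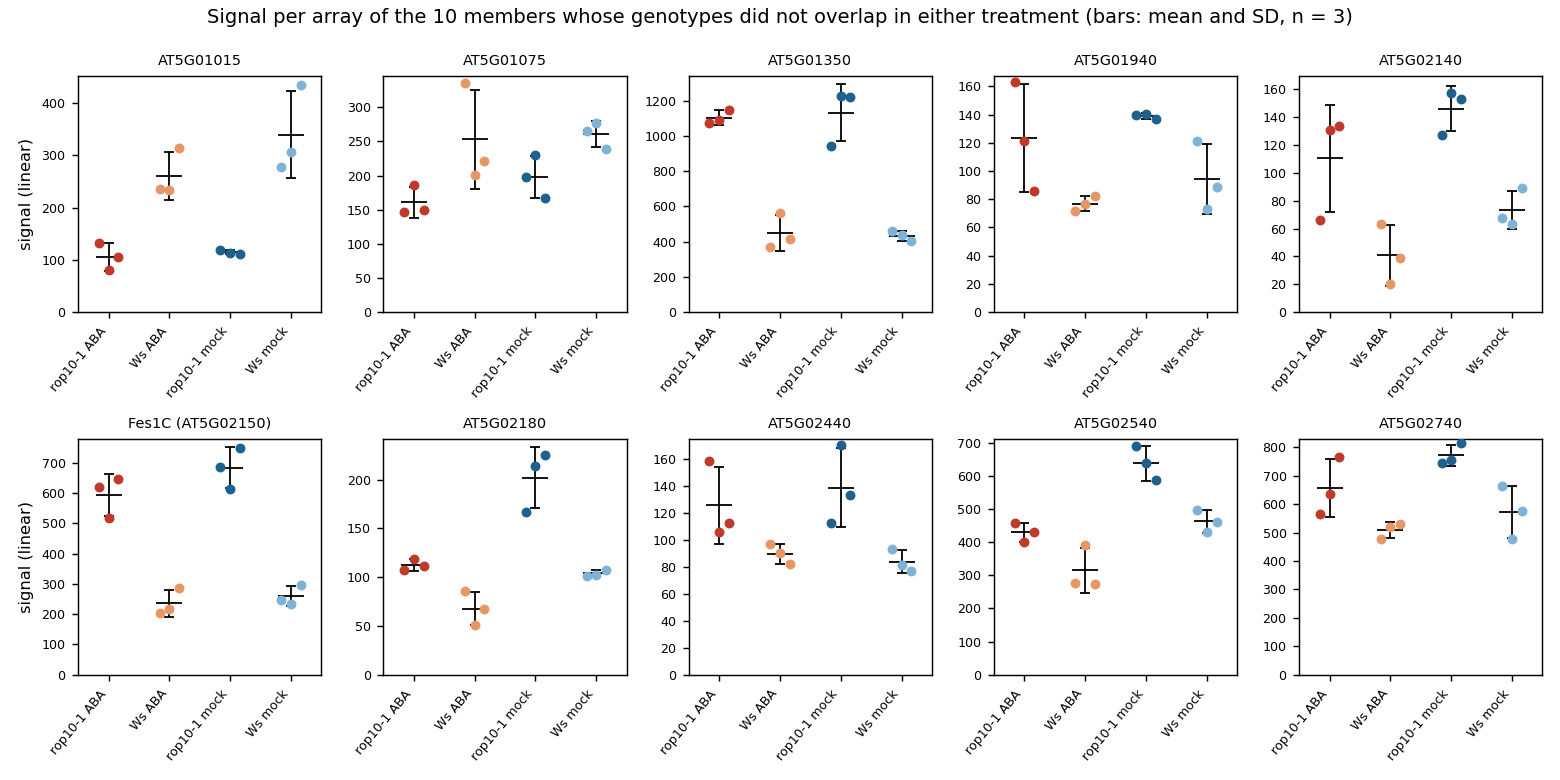
Each panel shows 1 of the 10 members, with linear signal on the vertical axis from 0 and, from left to right, rop10-1 ABA, Ws ABA, rop10-1 mock and Ws mock. Points are single arrays and bars the mean and SD (n = 3). Fes1C and AT5G01350 are separated most clearly upwards and AT5G01015 downwards, while AT5G01075, AT5G01940, AT5G02540 and AT5G02740 have groups that nearly meet.

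The places of the 10 members along the stretch are given as a description, without a test. With the 100 tested members taken in 5 runs of 20 in gene order, the run AT5G02020 to AT5G02480 held 4 that were higher in rop10-1 and none that was lower, Fes1C among them. The run AT5G01010 to AT5G01610 held 1 higher and 2 lower, AT5G01620 to AT5G01980 held 1 higher, and AT5G02490 to AT5G03030 held 2 higher. The last run, AT5G03120 to AT5G03610, held 0 in either direction. In gene order, the median absolute log2 difference of the 5 runs was 0.25, 0.19, 0.26, 0.24 and 0.12 under ABA. In mock it was 0.13, 0.14, 0.24, 0.18 and 0.13. The run that holds Fes1C had the 0.26 under ABA and the 0.24 in mock. Across the whole stretch it was 0.21 under ABA and 0.16 in mock, against 0.14 and 0.13 over all tested probe sets.

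Signed differences of the members were centred near 0, with medians of 0.042 under ABA and 0.0094 in mock. On the average of both treatments 54 members were higher in rop10-1 and 46 lower. Across the 100 members the difference under ABA and that in mock had a Pearson correlation of 0.681, which was 0.281 over the 90 members without the 10 described above and 0.484 over all tested probe sets. The 10 were picked for differences of the same sign in both treatments, so leaving them out lowers the correlation by construction. No such probe sets were left out of the value over all tested probe sets. The stretch was also chosen from this contrast, so nothing is read from these correlations. Genes measured on the same arrays are not independent replicates, and the arrays share replicate numbers.

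Values on both sides of the end at AT5G03610 are given without a test. The last 5 tested members inside it, AT5G03460, AT5G03490, AT5G03510, AT5G03560 and AT5G03610, had differences of 0.15, 0.55, 0.064, 0.42 and 0.0026 under ABA and of 0.20, 0.022, 0.11, 0.21 and -0.014 in mock. The first 5 outside it, ATMDAR2, SBE2.2, AT5G03660, TRM28 and AT5G03700, had 0.012, 0.035, -0.069, 0.17 and 0.12 under ABA and -0.058, -0.15, -0.0063, -0.36 and -0.24 in mock. None of these 10 was apart in both treatments. Of the next 100 tested single-gene probe sets, AT5G03630 to AT5G06190, 3 were apart in both treatments. The share was 1.16% on the rest of chromosome 5 and between 0.804% and 1.25% on chromosomes 1 to 4, where chromosome 3 had 0.804%.

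A further 29 tested members had genotypes that did not overlap in 1 treatment only, 14 of them under ABA and 15 in mock. Over all tested probe sets the share was 17.6%, with 9.51% under ABA and 8.04% in mock, and nothing is read from these counts either. Whether the difference itself depends on the treatment is covered by the interaction test given with the ABA response. AT5G01300, of the phosphatidylethanolamine-binding protein family, measured 94.1, 76.2 and 87.4 in rop10-1 ABA, against 225.9, 145.9 and 129.1 in Ws ABA. All rop10-1 ABA arrays were low (log2 difference -0.81), whereas in mock the groups overlapped (-0.19). AT5G02550 measured 182.5, 139.9 and 140.5 in rop10-1 ABA, against 109.1, 76.8 and 67.8 in Ws ABA (0.77), and had 0.11 in mock with overlap. AT5G01790 (-0.62) and the ankyrin-repeat gene ANK1 (-0.51) were lower in rop10-1 under ABA and had 0.0098 and -0.18 in mock.

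AT5G02710 was apart in mock only. It measured 946.5, 1021 and 1256.6 in rop10-1 mock, against 436.4, 738.3 and 837.2 in Ws mock (log2 difference 0.71), and its ABA arrays overlapped (0.13). SIS, a salt-induced serine-rich protein gene, measured 344.6, 328.3 and 289.7 in rop10-1 mock, against 542, 418.4 and 531.3 in Ws mock (-0.60). Under ABA the arrays of SIS overlapped widely, at 439.7, 771.5 and 408.2 in rop10-1 and 619.2, 344.9 and 455.3 in Ws. GSTL3, a glutathione transferase of the lambda class, was higher in rop10-1 mock (0.42) and overlapped under ABA (0.30). EXPA9, an expansin, which loosens cell walls, had -0.32 in mock and -0.20 under ABA, apart in mock only. The other 61 tested members overlapped in both treatments, with differences of at most 0.56 in size under ABA and 0.63 in mock.

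The 42 members left out for low signal had mean signals of 2.225 to 75.65, with a median of 40.9. Among them AT5G02690 was higher in rop10-1 in both treatments. It measured 48.7, 45.7 and 41.3 in rop10-1 ABA, against 20.4, 26.9 and 29.5 in Ws ABA. In mock AT5G02690 measured 54.7, 38.1 and 55.5 in rop10-1, against 10.1, 31.7 and 24.7 in Ws. The genotypes did not overlap, but the signal was low, and this difference, as for all members, was not tested.

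The response to ABA was tested with limma over all 15923 probe sets, on log2(signal + 16), with an adjusted p under 0.05 as a call. On the average of both genotypes, with 6 ABA against 6 mock arrays, 9 of the 100 tested members rose and 5 fell. This share of 14% was close to the 15.5% called over all tested probe sets (8.21% higher and 7.34% lower). The median of the members was -0.038 on the log2 scale, beside -0.050 over all tested probe sets, and the median size of change was 0.17 in both. For 13 of the 14, ABA and mock arrays were apart in each genotype, the exception being AT5G02170, whose Ws arrays overlapped. The 14 were called on these same arrays, so this separation is no further support. Its share among all tested probe sets was not counted.

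**Figure D3:**
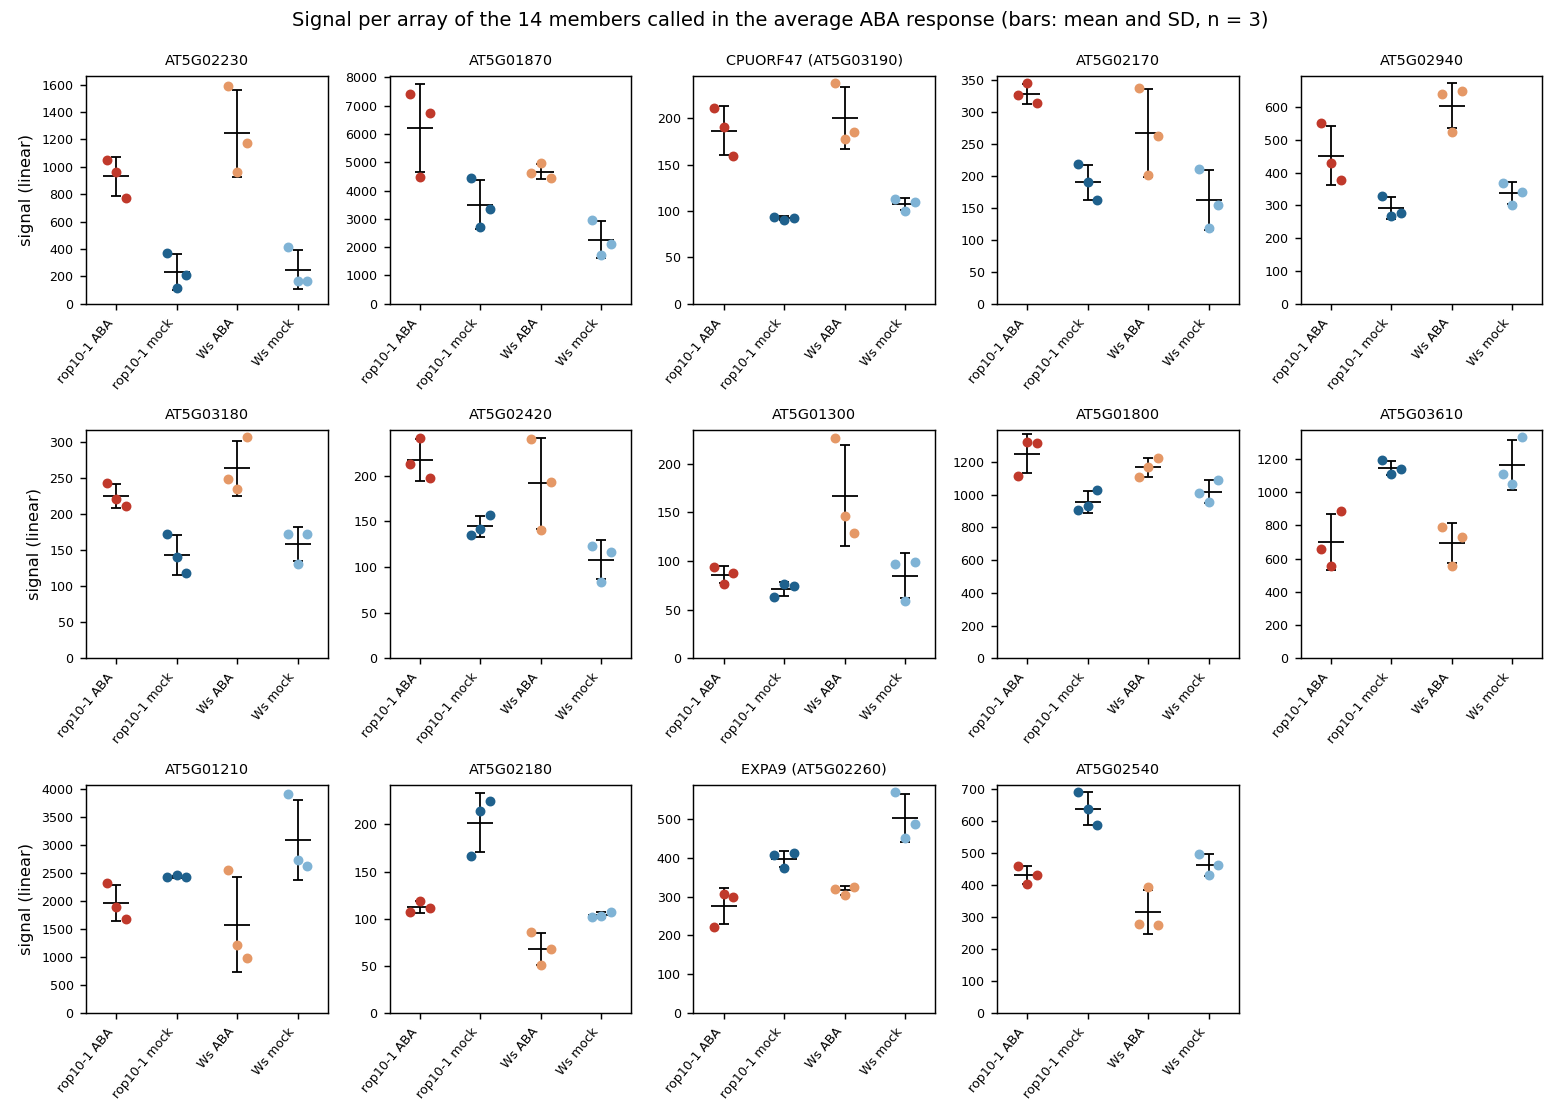
Panels show the 14 members that changed with ABA on the average of both genotypes, with linear signal on the vertical axis from 0 and, from left to right, rop10-1 ABA, rop10-1 mock, Ws ABA and Ws mock. Points are single arrays and bars the mean and SD (n = 3); the first 9 panels are genes that rose and the last 5 genes that fell, AT5G02230 with the largest change.

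AT5G02230, which encodes a hydrolase of the haloacid dehalogenase type, rose most of the called members on the average of both genotypes. It measured 1049.6, 965.1 and 772.9 in rop10-1 ABA, against 370.6, 116.4 and 210.7 in rop10-1 mock. In Ws it measured 1589.5, 965.2 and 1177.1 with ABA, against 410.9, 163.9 and 168.9 in mock. Every ABA array was above every mock array, and the number 1 mock arrays were the highest of their groups. The average log2 change was 2.20 (SE 0.27, limma adjusted p = 0.00016), with 2.05 in rop10-1 (adjusted p = 0.00703) and 2.35 in Ws (adjusted p = 0.00277).

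AT5G01870, a lipid-transfer protein gene, rose from a high basal level. Its signal was 7405.8, 4460.5 and 6732.3 in rop10-1 ABA, against 4437.7, 2728.3 and 3339.3 in rop10-1 mock. In Ws it was 4601.2, 4973.5 and 4431.9 with ABA, against 2972.4, 1718.9 and 2108.1 in mock. The rop10-1 groups nearly met, while the Ws groups were well apart. The average change was 0.94 (SE 0.17, adjusted p = 0.00209). It was called in Ws (1.07, adjusted p = 0.0166) and missed the threshold in rop10-1 (0.82, adjusted p = 0.0624, but 0.00376 where the replicate number was a block).

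CPUORF47 (AT5G03190), annotated for a conserved peptide encoded upstream of a main reading frame, had tight groups. It measured 210.7, 190.5 and 159.2 in rop10-1 ABA, against 94, 90.1 and 93 in rop10-1 mock. In Ws it measured 238.4, 177.9 and 185 with ABA, against 113.4, 100.4 and 109.3 in mock. The ABA arrays were all clearly above the mock arrays. CPUORF47 rose by 0.85 on average (SE 0.10, adjusted p = 0.000122), by 0.90 in rop10-1 (adjusted p = 0.00263) and by 0.80 in Ws (adjusted p = 0.00527).

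Another 6 members rose on average. AT5G02940, a gene of a chloroplast envelope ion channel family, and AT5G03180, of the RING/U-box type that acts in ubiquitin transfer, rose by 0.70 (SE 0.11) and 0.64 (SE 0.12), and both were called in each genotype. AT5G02170, the transporter-family neighbour of AT5G02180, rose by 0.71 (SE 0.15, adjusted p = 0.00609). AT5G02170 was called in neither genotype alone (adjusted p = 0.0551 in rop10-1 and 0.0819 in Ws, against 0.00905 and 0.0152 with the block). AT5G02420, which encodes an inhibitor of cyclin-dependent kinases, rose by 0.63 (SE 0.13, adjusted p = 0.00651) and was called in Ws (adjusted p = 0.0375) and not in rop10-1 (0.13).

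AT5G01300 and AT5G01800 passed only narrowly. AT5G01300 rose by 0.54 (SE 0.15, adjusted p = 0.0328), with 0.85 in Ws (adjusted p = 0.0371) and 0.23 in rop10-1 (adjusted p = 0.623). AT5G01800, of the saposin B type, a lipid-binding fold, rose by 0.29 (SE 0.084, adjusted p = 0.0368) and was called in neither genotype (0.0846 in rop10-1, 0.0197 with the block, and 0.41 in Ws). With 1 array left out at a time, AT5G01300 kept its call in 5 of 12 settings and AT5G01800 in 4 of 12. The largest adjusted p over these settings was 0.0752 for AT5G01300 and 0.0907 for AT5G01800.

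AT5G03610, a lipase of the GDSL type and the last locus of the stretch, had the largest fall among the members called on the average of both genotypes. Its signal was 655, 557.2 and 889.2 in rop10-1 ABA, against 1193.1, 1107.3 and 1140.4 in rop10-1 mock. In Ws it was 791.1, 558 and 731.5 with ABA, against 1107, 1051.5 and 1332.6 in mock. All ABA arrays were below all mock arrays, and the genotypes overlapped. The average change was -0.73 (SE 0.13, adjusted p = 0.00208), with -0.72 in rop10-1 (adjusted p = 0.034) and -0.74 in Ws (adjusted p = 0.0303).

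EXPA9, the expansin, fell by 0.58 on the log2 scale (SE 0.10, adjusted p = 0.00183). It measured 222.3, 305.4 and 297.9 in rop10-1 ABA, against 406.1, 373.3 and 412 in rop10-1 mock, and 318.9, 304.2 and 325.1 in Ws ABA, against 571.3, 450.2 and 487.5 in Ws mock. The ABA arrays were below the mock arrays in both genotypes. AT5G01210, an acyltransferase of the HXXXD type, fell on average (-0.69, SE 0.20, adjusted p = 0.0372) and was called in Ws (-1.06, adjusted p = 0.0466) and not in rop10-1 (-0.32, adjusted p = 0.599). Of 12 settings with 1 array left out AT5G01210 kept its average call in 3.

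AT5G02540 and AT5G02180 fell with ABA and were also among the 10 members that differed between the genotypes in both treatments. AT5G02540 fell by 0.55 on the log2 scale in rop10-1 (adjusted p = 0.0447) and in Ws (adjusted p = 0.046), and the average had an adjusted p of 0.00341. AT5G02180 had an average change of -0.64 (SE 0.12, adjusted p = 0.0028), and was called in rop10-1 (-0.75, adjusted p = 0.0177) and not in Ws (-0.53, adjusted p = 0.0848, 0.0576 with the block). The per-array values of both are given above with the genotype difference. The other 8 of the 10, Fes1C, AT5G01350, AT5G01015, AT5G02140, AT5G01075, AT5G01940, AT5G02440 and AT5G02740, were not called with ABA. Fes1C had an average change of -0.17 (SE 0.11), AT5G01015 of -0.24 (SE 0.14) and AT5G02140 of -0.56 (SE 0.21, adjusted p = 0.0896), with AT5G01350 near 0 (SE 0.11).

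Taken genotype by genotype, 8 members changed with ABA in rop10-1, 4 up and 4 down, and 11 in Ws, 7 up and 4 down, where 6.54% of all tested probe sets were called in each (4.03% higher and 2.51% lower in rop10-1, 4.05% and 2.49% in Ws). Called in both were 7 members, AT5G02230, CPUORF47, AT5G02940, AT5G03180, AT5G03610, EXPA9 and AT5G02540, each in the same direction. The share of all tested probe sets called in both genotypes was not counted, so nothing is read from this number. Blocking on the replicate number, the counts were 18 in rop10-1 (15.6% of all tested probe sets) and 17 in Ws (15.7%), and 30 for the average (28%). The 14 average calls were all among those 30. The 16 further members included AT5G01850 (0.49, adjusted p = 0.00399 with the block), the neighbour AT5G02160 (-0.34, adjusted p = 0.0409 with the block) and the ribosomal protein gene AT5G02610 (-0.33, adjusted p = 0.013 with the block).

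These counts changed when single arrays were left out. The shares over all tested probe sets were not counted in those settings, so nothing is read from the changes about these members. In rop10-1 the count of 8 was 2 without rop10-1 ABA 1, rop10-1 mock 2 or rop10-1 mock 3, 4 without rop10-1 ABA 2, rop10-1 ABA 3 or Ws mock 3, and 5 without rop10-1 mock 1. In Ws the count of 11 was 4 without Ws mock 2, 6 without Ws ABA 3, and 7 without Ws ABA 2, Ws mock 3, rop10-1 ABA 3, rop10-1 mock 2 or rop10-1 mock 3. With the block, the 18 of rop10-1 were 6 without rop10-1 mock 3, 8 without rop10-1 mock 1 or rop10-1 ABA 3 and 11 without rop10-1 ABA 2, and the 17 of Ws were 9 without Ws mock 2 or Ws ABA 3. The average call was held with each of the 12 arrays left out by 11 of the 14 members, all but AT5G01300, AT5G01800 and AT5G01210.

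**Figure D4:**
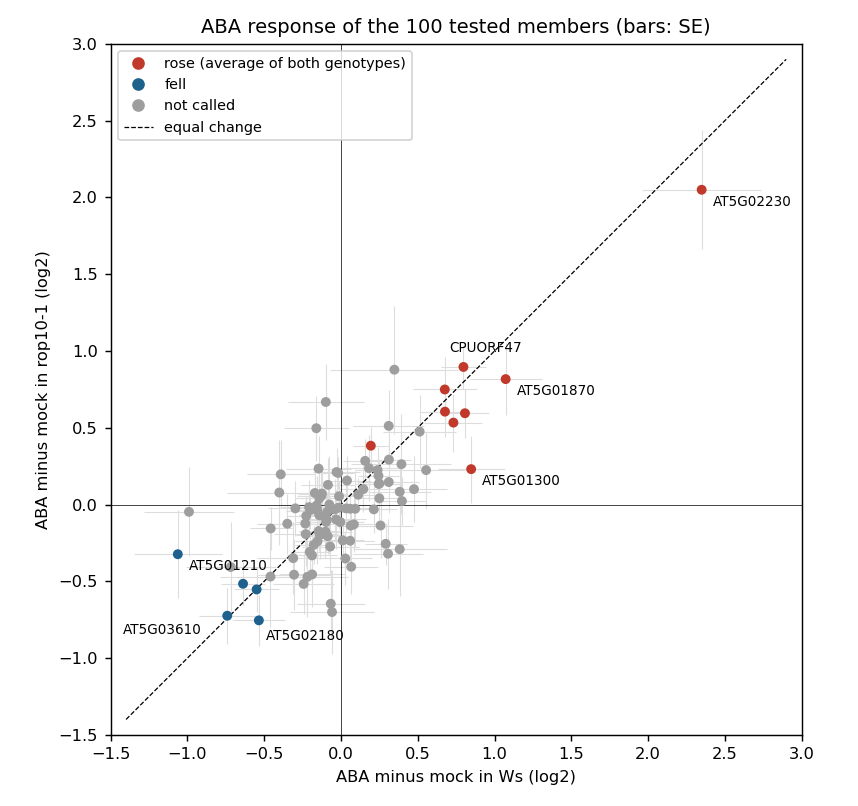
Each point is 1 of the 100 tested members, with the log2 change by ABA in rop10-1 on the vertical axis and in Ws on the horizontal axis; bars are standard errors and the dashed line marks equal change. Red members rose and blue members fell on the average of both genotypes, and most of them lie near the line, AT5G02230 at 2.05 in rop10-1 and 2.35 in Ws; AT5G01300 and AT5G01210 lie away from it.

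The change by ABA in rop10-1 minus that in Ws, the interaction, was called by limma for 0 of the 100 members and for 0 of all 15923 probe sets (0%), with the replicate block too. At an unadjusted p under 0.05 it held for 4 members, beside 1.89% of all tested probe sets. AT5G03345 had the smallest p (0.0149 unadjusted). It measured 1243, 1125.9 and 1092.3 in rop10-1 ABA, against 1221.1, 1430.8 and 1133.7 in Ws ABA, and 1540.9, 1414.7 and 1202.2 in rop10-1 mock, against 945.7, 1016.5 and 1114.7 in Ws mock. The genotypes were apart in mock and overlapped under ABA, an interaction of -0.55 (SE 0.19). AT5G03380 (0.94, SE 0.41), SIS (0.77, SE 0.35), AT5G02550 (0.66, SE 0.30) and AT5G01300 (-0.62, SE 0.31) followed.

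Among the 10 members that differed between the genotypes in both treatments, the largest interaction was 0.31 in size and the smallest unadjusted p was 0.373. These 10 were picked for differences of the same sign in both treatments, which favours small interactions. Nothing is therefore read from their interaction values. For Fes1C and AT5G01350 the interaction was -0.062 (SE 0.22) and -0.059 (SE 0.23), and for AT5G01015 it was 0.22 (SE 0.28). A p that misses the threshold does not show that the response was the same in both genotypes.

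Gene lists of the stretch held 49 genes, of which 13 had a single-gene probe set and 9 were tested. On the average of both genotypes 1 rose, AT5G01870 of the cell wall list, known as a lipid-transfer protein, and 1 fell, AT5G02540 of the list of other hormones, of the Rossmann-fold dehydrogenase type. Of 4 tested chaperone genes none passed the test. Besides Fes1C these were Hsp70-2 (-0.16, SE 0.24), AT5G02480 of the HSP20 type (-0.026, SE 0.11) and AT5G01390 of the DNAJ type (-0.067, SE 0.088). Between the genotypes they had 0.29, 0.19 and 0.11 under ABA and -0.19, -0.0087 and 0.068 in mock, with overlapping arrays. SIS (0.28, SE 0.17) was the tested gene of the ABA and drought list, FHL (-0.051, SE 0.11) that of the clock and light list and LHCB4.1 (0.021, SE 0.070) that of the photosynthesis list. The lists of Rop regulation, metal and phosphate, and ubiquitin had no probe set assigned to 1 of their genes alone and were not analysed here, and the transcription factor list and the chromatin and cell cycle list had 0 tested.

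Organ markers were set beside these results. Of 2 tested root hair genes, EXPA7 had a genotype difference of 0.34 under ABA and -0.069 in mock, and EXPA18 had 0.44 and 0.18. The light-harvesting gene LHCB4.2 had -0.11 and 0.027, and the guard cell genes FMA and AT1G22690 had -0.17 and -0.52 under ABA and -0.17 and 0.14 in mock. With ABA the markers gave 1 call of 6 tested, AT1G22690, which fell by 1.17 on the log2 scale (SE 0.21, adjusted p = 0.00269), while FMA had -0.041 (SE 0.10). The part of organ composition in the results above was not tested.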

How the data were processed

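Biotin-labelled cRNA from whole seedlings was hybridised to 12 ATH1 arrays, per the labels' protocols. Deposited values are linear intensity per probe set, called signal here. The software was GCOS 1.1.1, per the submitters' processing notes, and the sources used here do not give its scaling settings. No column belonged to another sample.

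Groups came from the sample titles, and the design text calls the replicates biological. Tests used limma 3.58.1 (R 4.3.3) on log2(value + 16), which understates changes at low signal. Left out were controls and the 30% of probe sets with the lowest mean log2 value over all arrays. One fit held a mean for each of the 4 groups over 12 arrays, with an intensity trend. Tests were two-sided, with Benjamini-Hochberg adjustment over 15923 probe sets. The limma step was also run on simulated arrays, for the ABA contrast in Ws only. Their noise was independent between arrays, so the simulation does not cover the shared replicate numbers, the block or the other contrasts.

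Gene names came from the array's annotation table, possibly an old one, which does not list 8730 probe sets and gives 503 several genes. Both kinds are unnamed here. Of the 142 members, 142 were found in the RefSeq table, which gave names and order. Named genes were the members apart between genotypes in both treatments, the ABA calls, the 5 smallest interaction p-values, the loci at the ends and the lists. AT5G02710 and further members apart in 1 treatment, the most abundant members, the neighbours of Fes1C, AT5G02690 and the members called only with the block were chosen after their values were seen. Members and lists were chosen with earlier results of these data known.

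The replicate numbers paired the arrays. Deviations from group means correlated at r = 0.215 to 0.711 over 18 same-number pairs, and at -0.475 to 0.11 over 36 others. The sources used here do not say where this pairing comes from. As alternatives, the pseudocount was 1 or 64, the low filter none or 50%, and values were quantile normalized or median centred. Fits without trend, with array weights, with the replicate block, without shared-probe IDs, within 1 genotype, and without each array were also run.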

Additional observations from a re-analysis of the deposited data

How the results depend on the processing

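The members named for the genotype difference, the ABA calls or the interaction kept their direction under every alternative run on them; for the 10 genotype members, leaving out an array cannot turn the sign. The average genotype difference ranged over the alternatives between 1.18 and 1.39 for Fes1C, 1.23 and 1.40 for AT5G01350, -1.42 and -1.05 for AT5G01015, and 0.67 and 1.24 for AT5G02140. With the replicate block the counts of members changed with ABA were 18 in rop10-1, 17 in Ws and 30 on average, and the interaction count stayed at 0. The block ended no average call. The rop10-1 count was 17 with array weights, 5 without a low filter and 5 of 63 tested members when the filter took the lowest 50%. The Ws count was 7 of those 63 under that stricter filter and 4 when only the 6 Ws arrays were fitted. For alternatives other than the block, the shares of all probe sets called with ABA were not counted, here and with arrays left out. Under the 50% filter 63 members were tested, and 11 were apart between genotypes under ABA, 16 in mock and 5 in both, where the shares over all probe sets were 10.8%, 9.96% and 1.31%. The cause of the changed counts was not tested. Without a low filter the average calls of AT5G01300 and AT5G01210 missed the threshold (adjusted p = 0.0517 and 0.0538). Leaving out each array in turn, the counts ranged between 2 and 11 in rop10-1, 4 and 10 in Ws, and 11 and 16 on average, and the interaction stayed at 0. The members apart between genotypes ranged between 24 and 40 under ABA, 25 and 40 in mock, and 10 and 14 in both, where groups of fewer arrays overlap less by construction and the shares over all tested probe sets ranged between 10.9% and 26.5%, 9.4% and 25.5%, and 1.38% and 2.93%. The 42 members of low signal were not tested.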

Other observations

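JKD (AT5G03150), a zinc finger transcription factor of root patterning, was listed but left out of the tests for its low mean signal. It measured 17.8, 31.4 and 12.2 in rop10-1 ABA, against 89.8, 163.4 and 98.1 in rop10-1 mock. In Ws it measured 52, 23.5 and 11.7 with ABA, against 139.9, 96.3 and 99 in mock. The ABA arrays were all below the mock arrays in both genotypes. JKD averaged 69.6 over the 12 arrays, and its change was not tested.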
